A study of Xenopus tropicalis with 9 samples.

Results

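The Hedgehog genes described here are the ligands shh, ihh and dhh, the receptor ptch1, the signal transducer smo, the transcription factors gli1, gli2 and gli3, and the ligand-binding inhibitor hhip. They were chosen by gene symbol in an RPKM table of 15288 Xenopus tropicalis genes. Of the 9 symbols sought, 8 were found and gli1 was not; the table lists gli1.1 and gli1.2 instead, which are described beside the members and not counted with them. In short, smo and ptch1 were present in the oocyte and in every library, shh, dhh, gli2 and gli3 were low until the late blastula and above 1 RPKM from the gastrula on, hhip passed 1 RPKM only in the early larva, and ihh did so in no library.

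Hedgehog ligands are secreted, lipid-modified proteins. Without ligand, Patched holds the membrane protein Smoothened inactive, and Gli proteins, Gli3 above all, are trimmed to repressors; when a ligand binds Patched, Smoothened moves into the primary cilium and full-length Gli activators accumulate. Patched and Hhip both bind ligand, both are transcribed in response to the pathway in vertebrates, and both limit its reach. In vertebrate embryos shh is made in the notochord, the floor plate and the foregut and patterns the neural tube and the somites, while ihh is best known from growing cartilage and dhh from the gonads and Schwann cells of mammals; in Xenopus, dhh was named cephalic hedgehog and ihh banded hedgehog.

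RNA was taken from whole oocytes at Stage VI, freed from their follicles with collagenase, and from whole in vitro fertilized embryos of outbred frogs of the early blastula (stage 6), the late blastula (stage 9, after the mid-blastula transition, MBT), the gastrula (stage 12), the neurula (stage 16) and the early larva (stage 30). The labels name no allele and no test compound; handling differed, as embryos were dejellied in cysteine and oocytes treated with collagenase. The 6 polyA libraries covered all these stages and held RNA selected on oligo(dT) in successive rounds. The 3 RZ libraries were made from total RNA of oocytes, stage 6 and stage 9 embryos after removal of ribosomal RNA (Ribo-Zero). Each library pooled the RNA of 3 biological replicates, which for the embryos came from separate crosses, so there was 1 library per condition. No spread between replicates can be given, no test was possible, and every difference is a difference between libraries.

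RPKM scales the reads of a gene to the length of its exons in kilobases and to the mapped reads of the library. Single-exon genes gave the mapped reads, which ranged from 13422643 (polyA stage 9) to 44490754 (polyA stage 6), and 3 reads on 1 kb of exon were worth 0.0674 RPKM in polyA stage 6 and 0.224 RPKM in polyA stage 9. This floor was used for all genes, since the reads behind a mean over several exons are not known. The RPKM were not scaled between libraries, and the median gene differed between them. On the log2(RPKM + 0.1) scale, on which all later-over-earlier log2 differences here are given, it shifted by -1.41 in polyA stage 6 against the oocyte, 1.5 in stage 9 against stage 6, -1.34 in stage 12 against stage 9, 0.48 in stage 16 against stage 12, 0.18 in stage 30 against stage 16 and -0.26 in stage 30 against the oocyte. This shift is the median log2 difference over genes with at least 1 RPKM in either library compared. It is not the median over all 15288 genes. Differences of members are therefore also given relative to this shift. The labels of the oocyte and of stage 30 were checked with oocyte markers. Together, zp2, zp3, gdf9, bmp15 and zar1 summed to 1.07 RPKM in polyA stage 30, against 300.2 RPKM in the polyA oocyte, where all 5 were above 0. The sum was 78.3 RPKM in polyA stage 6 and 266.2 RPKM in polyA stage 9, so these markers do not set the oocyte apart from the late blastula. In polyA stage 12 the sum was 45.5 RPKM and in polyA stage 16 it was 26.9 RPKM.

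In the polyA libraries, 2 of the 8 members reached 1 RPKM in the oocyte, at stage 6 and at stage 9, 6 did at stage 12 and at stage 16, and 7 did at stage 30. The 2 early ones were smo and ptch1, which were also the only 2 in each of the 3 RZ libraries. Members listed at 0 numbered 1, 3 and 1 in polyA oocyte, stage 6 and stage 9, and 2, 3 and 2 in RZ oocyte, stage 6 and stage 9. All 8 were above 0 in polyA stages 12, 16 and 30. The order of the levels changed with it. RPKM is per length, so levels of different genes were set side by side as deposited. In polyA libraries they also depend on which RNAs were captured, so a fold between genes is not a fold between amounts of RNA. On this scale smo had the highest level of the 8 in every polyA library before stage 30, where shh stood above it. In whole embryos, fewer cells that express a gene and less RNA per cell cannot be told apart.

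**Figure D1:**
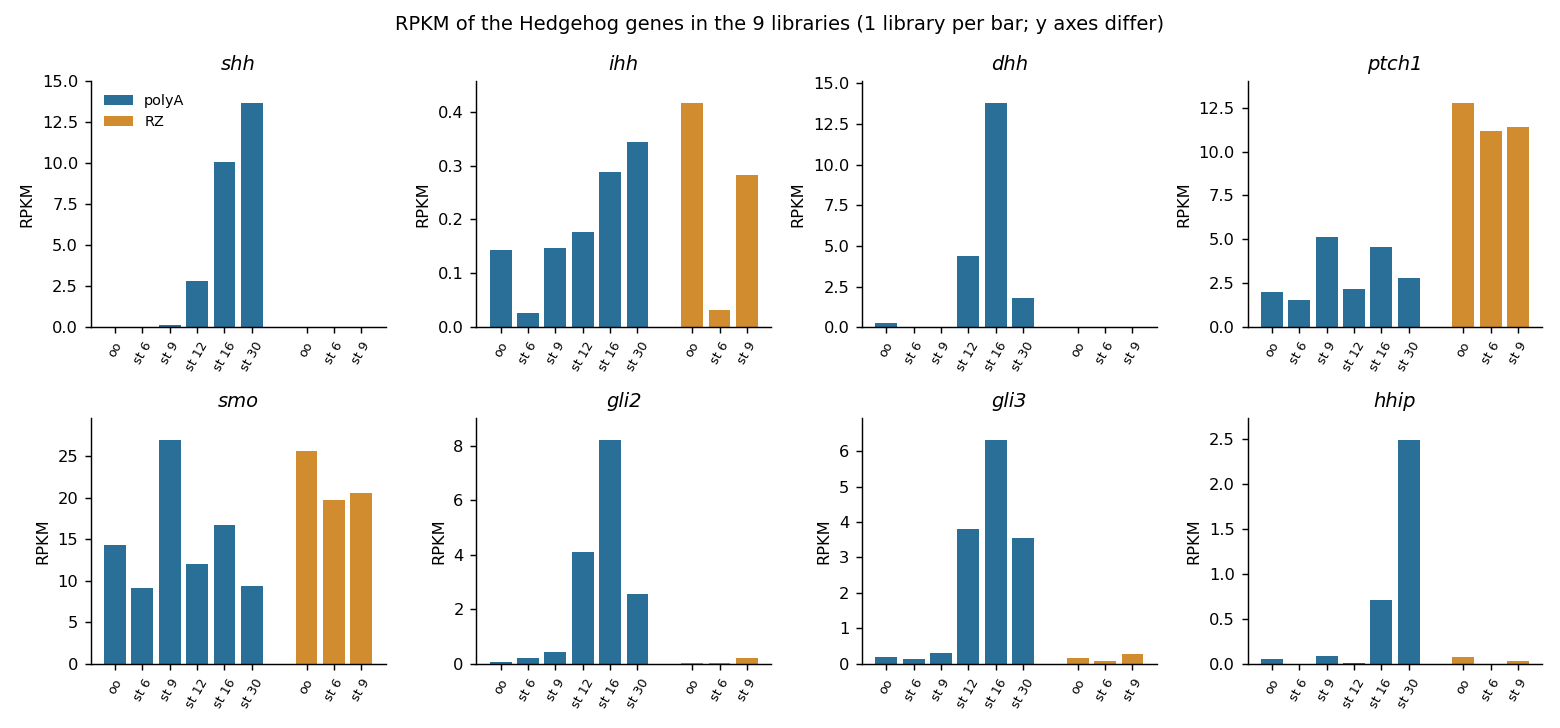
RPKM of the 8 members (1 panel each, y axes differ) in the 6 polyA libraries (blue) and the 3 RZ libraries (orange), 1 bar per library from oocyte (oo) to stage 30 (st 30). Bars of shh, dhh, gli2 and gli3 stand above 1 RPKM only from stage 12 on, while ptch1 is at 1.52 to 5.12 RPKM in the polyA libraries and at 11.2 to 12.7 RPKM in the RZ libraries.

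Among the ligands, shh (scaffold 6, 129426475 to 129445354, plus strand, positions here and below as the table lists them on the JGI assembly 7.1) was listed at 0 in the polyA oocyte and at polyA stage 6 and had 0.117 RPKM in the late blastula, 2.81 in the gastrula, 10.1 in the neurula and 13.7 in the early larva. It was listed at 0 in all 3 RZ libraries. The polyA stage 9 value was above 0 but lay under the floor of 0.224 RPKM, so shh reached the floor in no library before the gastrula. From there on its level was higher at each later polyA stage than at the one before. At stage 16 it was 3.58-fold that of stage 12, and at stage 30 it was 1.36-fold that of stage 16. Relative to the median gene these log2 differences were 1.33 and 0.26, and shh stood at the 58.0th percentile of all genes at stage 12, the 74.8th at stage 16 and the 79.3rd at stage 30.

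The ligand dhh (scaffold 2, 78094178 to 78115189, minus strand) had 0.251 RPKM in the polyA oocyte, was listed at 0 at polyA stages 6 and 9, and had 4.37 RPKM in the gastrula, 13.8 in the neurula and 1.80 in the early larva. Its level thus had its peak in the neurula. It was listed at 0 in all 3 RZ libraries, the RZ oocyte included. At stage 16 it was 3.15-fold that of stage 12, a log2 difference of 1.63 or 1.16 relative to the median gene. At stage 30 the level was 0.131 of that at stage 16, a log2 difference of -2.87 or -3.05 relative to the median gene, and 1.7% of all genes counted between these libraries had a lower one. The low oocyte value stood in the library that also held markers of ovarian follicle cells: 9 of 10 of them were above 0 in the polyA oocyte (amh was at 0), led by cyp17a1 at 2.56 RPKM. Over the polyA oocyte and stages 6, 9, 12, 16 and 30 the 10 markers summed to 5.24, 0.0416, 0.0138, 1.57, 4.59 and 7.23 RPKM, so that the list is not particular to the oocyte: foxl2 alone had 5.09 RPKM in polyA stage 30. In the RZ oocyte they summed to 0.757 RPKM, with foxl2, amh and hsd3b1 at 0. Their part in the dhh value was not tested.

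The ligand ihh (scaffold 9, 4344510 to 4388441, minus strand) stayed under 1 RPKM in all 9 libraries. It had 0.143 RPKM in the polyA oocyte, 0.0256 in the early blastula, 0.148 in the late blastula, 0.177 in the gastrula, 0.288 in the neurula and 0.344 in the early larva. The RZ libraries had 0.416 RPKM in the oocyte, 0.0314 in the early blastula and 0.283 in the late blastula. These values lay at or above the floor in 6 of the 9 libraries and between the 18.1th and the 30.0th percentile of the polyA libraries. Since it was under 1 RPKM throughout, no difference of ihh between libraries was counted.

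The makeup of the ligand RNA differed between the early larva and the neurula. The 3 ligands summed to 7.36 RPKM in the gastrula, 24.1 in the neurula and 15.8 in the early larva. Of these sums dhh took 59.4%, 57.1% and 11.4%, and shh took 38.2%, 41.7% and 86.4%. The share of ihh was 2.40%, 1.2% and 2.18%. At stage 12 the level of dhh was 1.55-fold that of shh and at stage 16 it was 1.37-fold, whereas at stage 30 shh was 7.60-fold dhh.

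**Figure D2:**
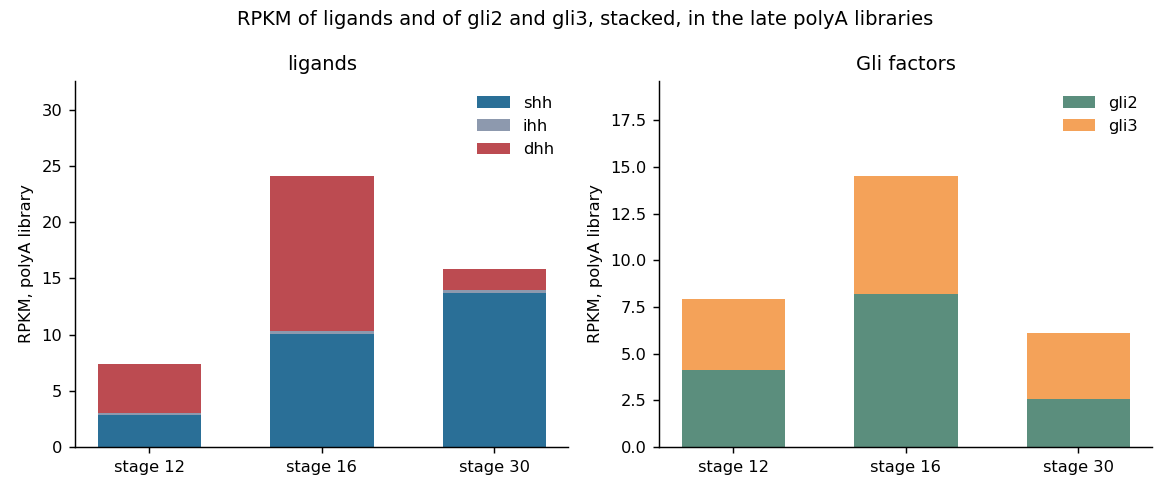
Stacked RPKM of the ligands shh, ihh and dhh (left) and of gli2 and gli3 (right) in polyA stages 12, 16 and 30, 1 library per bar. The dhh part of the ligand bar is 11.4% at stage 30, against 57.1% at stage 16, and gli2 takes 42.0% of the bar on the right at stage 30, against 56.6% at stage 16.

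The receptor ptch1 (scaffold 1, 89817656 to 89881538, plus strand) had 1.98 RPKM in the polyA oocyte, 1.52 in the early blastula, 5.12 in the late blastula, 2.15 in the gastrula, 4.58 in the neurula and 2.83 in the early larva. Its RZ level was 12.7 RPKM in the oocyte, 11.2 in the early blastula and 11.4 in the late blastula. It was thus a maternal RNA, present before the embryo makes its own. With RPKM as deposited, its polyA level differed in the same direction as the median gene at each step up to the neurula, though not always by a like amount. From the neurula to the early larva it was lower while the median gene was higher. Its log2 differences between successive polyA libraries were -0.35, 1.69, -1.21, 1.05 and -0.68, and relative to the median gene they were 1.05, 0.19, 0.13, 0.58 and -0.86. With libraries scaled to the same median over the 6789 genes at 1 RPKM or more in all polyA libraries, the first became 0.80 and the stage 12 over stage 9 one 0.12, so that neither of these 2 has a direction that holds under both scales. From stage 9 to stage 30 the last step alone was lower than the median gene.

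Smoothened, smo (scaffold 3, 115653953 to 115679838, minus strand), had 14.3 RPKM in the polyA oocyte, 9.11 in the early blastula, 26.9 in the late blastula, 12.0 in the gastrula, 16.7 in the neurula and 9.32 in the early larva. The RZ libraries had 25.6 RPKM in the oocyte, 19.7 in the early blastula and 20.6 in the late blastula. It lay between the 71.5th and the 83.7th percentile of the polyA libraries. Between successive polyA libraries its log2 differences relative to the median gene were 0.76, 0.05, 0.19, 0.00 and -1.02. In polyA stage 30 it was 0.61 lower on the log2 scale than in the polyA oocyte with RPKM as deposited and 0.29 higher with libraries scaled to the same median, so no direction is given. The level of smo was 7.24-fold that of ptch1 in the polyA oocyte, 5.97-fold in the early blastula, 5.25-fold in the late blastula, 5.58-fold in the gastrula, 3.65-fold in the neurula and 3.30-fold in the early larva, while in the RZ libraries it was 1.76-fold to 2.01-fold.

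The inhibitor hhip (scaffold 1, 165724699 to 165806685, minus strand), a membrane-anchored decoy for the ligands, had 0.0534 RPKM in the polyA oocyte, 0 in the early blastula, 0.0906 in the late blastula, 0.0141 in the gastrula, 0.705 in the neurula and 2.49 in the early larva. The RZ libraries had 0.0769, 0 and 0.0277 RPKM. Every value before stage 16 lay under the floor of its library, though several were above 0, so the neurula was the first stage at which hhip reached the floor. At stage 30 its level was 3.53-fold that at stage 16, 1.5 above the median gene on the log2 scale. It then stood at 0.880 of the level of ptch1, against 0.154 in the neurula.

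Of the Gli factors, gli2 (scaffold 385, 20509 to 82895, plus strand), the main activator in vertebrates, had 0.0658 RPKM in the polyA oocyte, 0.218 in the early blastula, 0.451 in the late blastula, 4.12 in the gastrula, 8.21 in the neurula and 2.56 in the early larva. Its RZ level was 0.0422 RPKM in the oocyte, 0.0148 in the early blastula and 0.209 in the late blastula. The stage 12 level was 9.13-fold that of stage 9, or 4.28 on the log2 scale relative to the median gene. At stage 30 the log2 difference to stage 16 was -1.64, or -1.82 relative to the median gene.

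The other Gli factor found, gli3 (scaffold 6, 85718202 to 85852721, minus strand), the main repressor, had 0.204 RPKM in the polyA oocyte, 0.146 in the early blastula, 0.315 in the late blastula, 3.81 in the gastrula, 6.31 in the neurula and 3.54 in the early larva. The RZ values were 0.167 RPKM in the oocyte, 0.0703 in the early blastula and 0.276 in the late blastula. Its stage 12 level was 12.1-fold that of stage 9, or 4.58 on the log2 scale relative to the median gene. The log2 difference of stage 30 to stage 16 was -0.82, or -1.0 relative to the median gene. Both factors thus had their highest level at stage 16, and both were above the floor at polyA stages 6 and 9, when shh and dhh were not. In RZ stage 6, however, both factors were under the floor of 0.134 RPKM, while in RZ stage 9 both were above the floor of 0.126 RPKM. The level of gli2 was 1.08-fold that of gli3 in the gastrula, 1.30-fold in the neurula and 0.724-fold in the early larva. With 1 library each, it is not known whether this change of order is larger than the spread between embryos.

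Under the symbols gli1.1 and gli1.2 the table holds a pair of genes on scaffold 2 with patterns unlike each other. The RefSeq gene list (assembly UCB_Xtro_10.0), in which all 8 members found were matched by symbol, has 1 gene named gli1 and neither of these symbols, so which of them is the Gli1 gene, itself a target and amplifier of the pathway, could not be settled here. The pair was looked at after its values were seen. The gene gli1.1 (84470196 to 84479717) had 0.00129 RPKM in the polyA oocyte, 0.0136 in the early blastula, 0.00496 in the late blastula, 3.17 in the gastrula, 3.40 in the neurula and 1.52 in the early larva, under the floor until stage 9 like shh. The gene gli1.2 (85126302 to 85130443) had 148 RPKM in the polyA oocyte, 32.3 in the early blastula, 116 in the late blastula, 147 in the gastrula, 43.7 in the neurula and 3.35 in the early larva. Reads that mapped to several positions were left out by the authors, so RNA shared by near-identical genes would be missing from both.

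The polyA and RZ libraries of a stage differ in which RNAs were captured, and their ratio (PA/RZ, on a log2 scale with no pseudocount) addresses how much of an RNA carried a polyA tail. Only ptch1 and smo had at least 1 RPKM in either library and values above 0 in both. RNAs with a ratio of -0.5 or lower were called RZ-enriched. In the oocyte both genes were, against 28.1% of the 9503 genes counted, at stage 6 both were, against 54.3% of 8905 genes, and at stage 9 ptch1 was and smo was not, against 21.2% of 9516 genes. With more than 0.5 of all genes called at stage 6, the calls at that stage say little about these genes, and the ratios are given instead.

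The PA/RZ ratio of ptch1 was -2.69 in the oocyte, -2.87 in the early blastula and -1.15 in the late blastula. Its RZ RPKM was thus 6.45-, 7.33- and 2.23-fold its polyA RPKM, which is not a fold between amounts of RNA. The share of genes with a lower ratio was 2.29%, 4.96% and 5.42%. The ratio of smo was -0.84, -1.11 and 0.39, with 20.5%, 35.2% and 56.4% of genes lower, while the median gene was at 0.29, -0.63 and 0.23. The ptch1 ratio therefore lay below the 5th percentile of all genes in the oocyte (-2.06) and near it at stages 6 and 9 (-2.87 and -1.19). That of smo lay within the middle of all genes at stage 9. Across the MBT the levels of both genes differed more in polyA than in RZ. For ptch1 the log2 ratio of stage 9 to stage 6, without a pseudocount, was 1.75 in polyA and 0.03 in RZ. For smo the same values were 1.56 in polyA and 0.07 in RZ, and the shift of the median polyA gene between these stages, given above, was of like size. No other member could be judged, since all 6 were under 1 RPKM in both libraries of each of these stages.

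**Figure D3:**
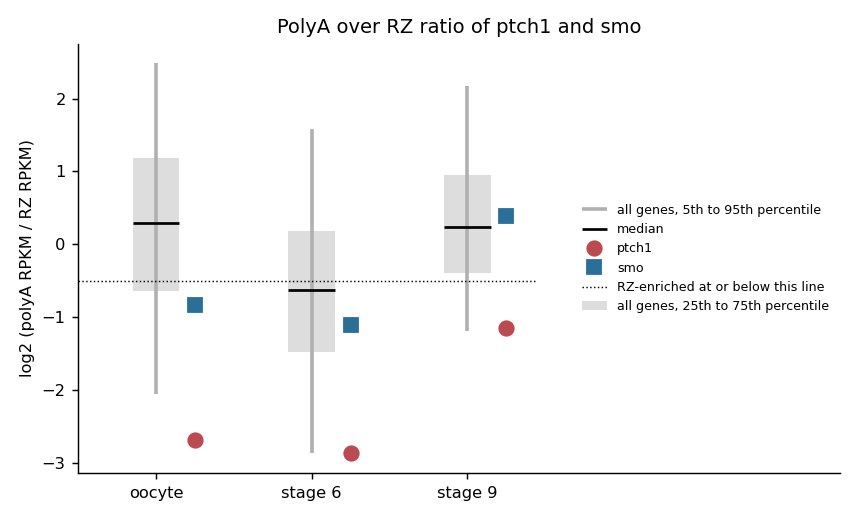
PA/RZ ratio (log2 of polyA over RZ RPKM) for ptch1 (red circles) and smo (blue squares) at the oocyte, stage 6 and stage 9, beside all genes counted (box: 25th to 75th percentile, black line: median, grey line: 5th to 95th percentile). The dotted line is the limit of -0.5 for RZ-enriched genes; ptch1 lies below it at all 3 stages, smo at the first 2.

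Differences between polyA libraries were counted as calls where the later and the earlier library differed 4-fold or more on the log2(RPKM + 0.1) scale, among genes with at least 1 RPKM in either. Of the 2 members counted for stage 6 over the oocyte none was called, beside 1.41% of all genes higher and 32.2% lower. For stage 9 over stage 6 again none of 2 was called, beside 30.7% of all genes higher and 0.415% lower. For stage 12 over stage 9, 4 of 6 members were called higher and none lower, beside 8.84% of all genes higher and 34% lower: shh, dhh, gli2 and gli3. The other 2, ptch1 and smo, were not past 4-fold. For stage 16 over stage 12 none of 6 was called, beside 16.7% higher and 1.79% lower. For stage 30 over stage 16, 1 of 7 was called lower, dhh, and none higher, beside 9.66% of all genes higher and 4.54% lower. Over the whole span, stage 30 over the oocyte, 5 of 7 were called higher and none lower, beside 23.2% of all genes higher and 18.2% lower. These were shh, dhh, gli2, gli3 and hhip, of which shh was listed at 0 in the oocyte and gli2 and hhip were under the floor there, so that no fold is given for them. Of the called members, shh, dhh, gli2 and gli3 at stage 12 and all 5 at stage 30 were counted only through the later library, where they are high. The level of gli3 was 17.4-fold and that of dhh 7.16-fold the oocyte level. These counts rest on low earlier values: with a pseudocount of 1 RPKM in place of 0.1, 1 member was past 4-fold for stage 12 over stage 9 (dhh) and 1 for stage 30 over the oocyte (shh). Of all genes, 5.54% and 13% were then higher.

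Over all 8 members, without a filter on low values, the median log2 difference was 1.55 for stage 12 over stage 9, where the median over all 15288 genes was -0.64. It was 1.02 for stage 16 over stage 12, against 0.38 over all genes, and -0.75 for stage 30 over stage 16, against 0.17. Scaling the libraries to the same median changed none of the member counts, but it changed the shares over all genes. For stage 6 over the oocyte these became 7.5% higher and 7.96% lower, for stage 9 over stage 6 they became 3.77% and 4.11%, for stage 12 over stage 9 they became 17.2% and 9.88%, and for stage 30 over the oocyte they became 31% and 8.69%.

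**Figure D4:**
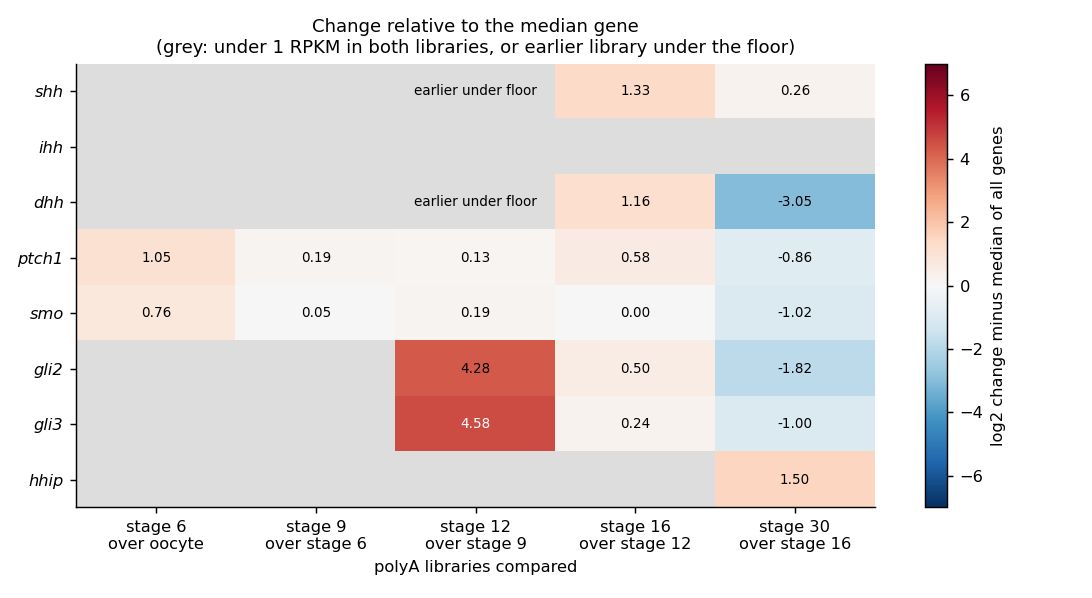
Log2 difference of each member between successive polyA libraries, minus the median over genes with at least 1 RPKM in either library. Colour and number in each cell give this value (red is higher, blue lower in the later library). The highest values stand in the column of stage 12 over stage 9 (gli2 4.28, gli3 4.58) and the lowest is dhh in stage 30 over stage 16 (-3.05); grey cells were under 1 RPKM in both libraries, or under the floor in the earlier one, as shh and dhh were at stage 9.

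Among the other components of the pathway, 31 genes for ligand release, co-receptors, Gli regulation and the primary cilium were all in the table. Most were maternal like smo: 26 of the 31 had at least 1 RPKM in the polyA oocyte or polyA stage 6. For stage 6 over the oocyte none of 26 counted was called higher and 4 were lower, beside 1.41% and 32.2% of all genes, and for stage 9 over stage 6, 9 of 26 were higher and none lower, beside 30.7% and 0.415%. With libraries scaled to the same median, 4 were higher and 0 lower in the first comparison and 0 were higher in the second, so no direction is given for the components before stage 9. For stage 12 over stage 9, 4 of 30 counted were called higher and 8 lower, beside 8.84% and 34% of all genes. The 4 were scube2, gas1, lrp2 and ift172. The 8 lower ones were hhat, scube1, kif7, ulk3, btrc, spop, spopl and dync2h1. With libraries scaled to the same median, 2 were lower. For stage 16 over stage 12, 3 of 28 were higher (scube1, ift88 and dync2h1; 1 gene after scaling) and none lower, beside 16.7% and 1.79% of all genes, and for stage 30 over stage 16 none of 28 was called, beside 9.66% and 4.54%. For stage 30 over the oocyte, 5 of 30 were called higher and 2 lower, beside 23.2% and 18.2% of all genes. Scaling made the higher ones 10. Read against the shares over all genes, these counts are no result about the components.

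The co-receptor gas1, which binds Hedgehog ligand beside Patched, had 0.530 RPKM in the polyA oocyte, 0.0831 in the early blastula, 0.530 in the late blastula, 15.3 in the gastrula, 25.4 in the neurula and 18.7 in the early larva. The secreted protein scube2, which helps to release the lipid-modified ligand from the cell, had 0.152, 0.00220, 0.734, 8.82, 10.2 and 4.63 RPKM at the same stages. The endocytic receptor lrp2, which binds Shh, had 0.0256, 0, 0.0628, 2.83, 3.86 and 1.94 RPKM. These 3 had their highest polyA level at stage 16, as dhh, gli2 and gli3 did. That was not particular to them: boc, gpr161, arl13b, tulp3, ift172, dync2h1 and csnk1a1, of the same list, also had theirs at stage 16. The cilium protein evc, which works beside Smoothened, had 1.55, 0.445, 2.24, 1.5, 5.33 and 8.71 RPKM. The gene ift172, for transport within the cilium, had 0.384, 0.413, 0.253, 2.87, 5.59 and 1.86 RPKM. Of the 2 genes lower in the early larva than in the oocyte, the kinase gene ulk3 had 17.9 RPKM in the polyA oocyte, 6.30 in the early blastula, 9.43 in the late blastula, 0.109 in the gastrula, 0.132 in the neurula and 0.603 in the early larva. The glypican gene gpc3 had 6.11, 0.607, 2.88, 2.13, 2.06 and 0.659 RPKM. Sufu, the main restraint on Gli proteins, was like ptch1 in its low PA/RZ ratio in the oocyte, -2.65, with 2.71 RPKM in polyA and 17 in RZ. That was not particular to sufu: of the same list, cdon was at -3.07 and spopl at -2.60. Of the components counted, 10 of 26 were RZ-enriched in the oocyte, 12 of 23 in the early blastula and 3 of 25 in the late blastula, beside 28.1%, 54.3% and 21.2% of all genes.

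The 25 genes of the list of targets and territories, known in vertebrates as Gli targets or as factors of the neural tube, somite and gut regions that Hedgehog patterns, were all in the table. Few had 1 RPKM early: for stage 6 over the oocyte 2 of 4 counted were called lower, beside 32.2% of all genes. For stage 9 over stage 6, 4 of 7 were higher, beside 30.7% of all genes. After scaling these counts became 0 and 1, beside 7.96% and 3.77% of all genes. For stage 12 over stage 9, 9 of 15 counted were called higher and 1, pax7, lower, beside 8.84% of all genes higher and 34% lower. All of the 9 but ccnd1 were under 1 RPKM at stage 9 and were counted only through the later library, where they are high. For stage 16 over stage 12, 8 of 19 were higher and none lower, beside 16.7% and 1.79%. Here too all of the 8 but mycn were counted only through the later library. For stage 30 over stage 16, 3 of 24 were higher and none lower, near the 9.66% of all genes higher. For stage 30 over the oocyte 19 of 24 were higher and none lower, beside 23.2% and 18.2%; many were counted only through the later library. Several of these genes are also controlled by other signals, so their levels are no readout of Hedgehog signalling alone. The list was not split by how its genes respond to Hedgehog. With shh and gli2, first above 1 RPKM in the gastrula, came foxa2, a floor plate factor that the paper also lists under gastrulation. It had 0.0273 RPKM in the late blastula, 5.10 in the gastrula, 4.25 in the neurula and 3.55 in the early larva. So did foxa1, olig2, foxf1, prdm1, pax6, pax3 and foxj1 first pass 1 RPKM there. Other genes of the list were under 1 RPKM in the gastrula, among them nkx2-2 (0.0989), nkx2-1 (0.0351), nkx6-1 (0.425) and ntn1 (0.224). Of these, nkx6-1 had 2.64 RPKM in the polyA oocyte and 1.33 RPKM in polyA stage 9. By the size of the difference the list was led by hand2, at 18.2 RPKM in stage 30 and 0 in the oocyte, and pax6, at 11.8 RPKM in stage 30 and 0 in the oocyte. Next stood foxf1, a gut mesoderm factor, at 15.6 RPKM in stage 30 and 0.0320 in the oocyte, foxa1, at 12.4 RPKM in stage 30 and 0.0338 in the oocyte, and the axon guidance gene ntn1, at 10.4 RPKM in stage 30 and 0.0201 in the oocyte. Notochord and floor plate markers went different ways after the gastrula. The 7 of 8 in the table (noto was not found) summed to 1.98 RPKM in polyA stage 9, 131.8 in the gastrula, 65.3 in the neurula and 32.9 in the early larva, a sum carried by t (the notochord factor brachyury, with 63.7, 5.88 and 2.57 RPKM in the last 3) and chrd (47.2, 26.3 and 1.28 RPKM). In the same 3 libraries ntn1 had 0.224, 11.7 and 10.4 RPKM and arx 0.167, 1.32 and 4.36 RPKM, higher after the gastrula as shh was. None of the 7 was at 0 in these 4 libraries, and 3 of them (foxa2, foxj1 and ntn1) are also on the list of targets and territories. Their part in the shh levels was not tested.

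**Figure D5:**
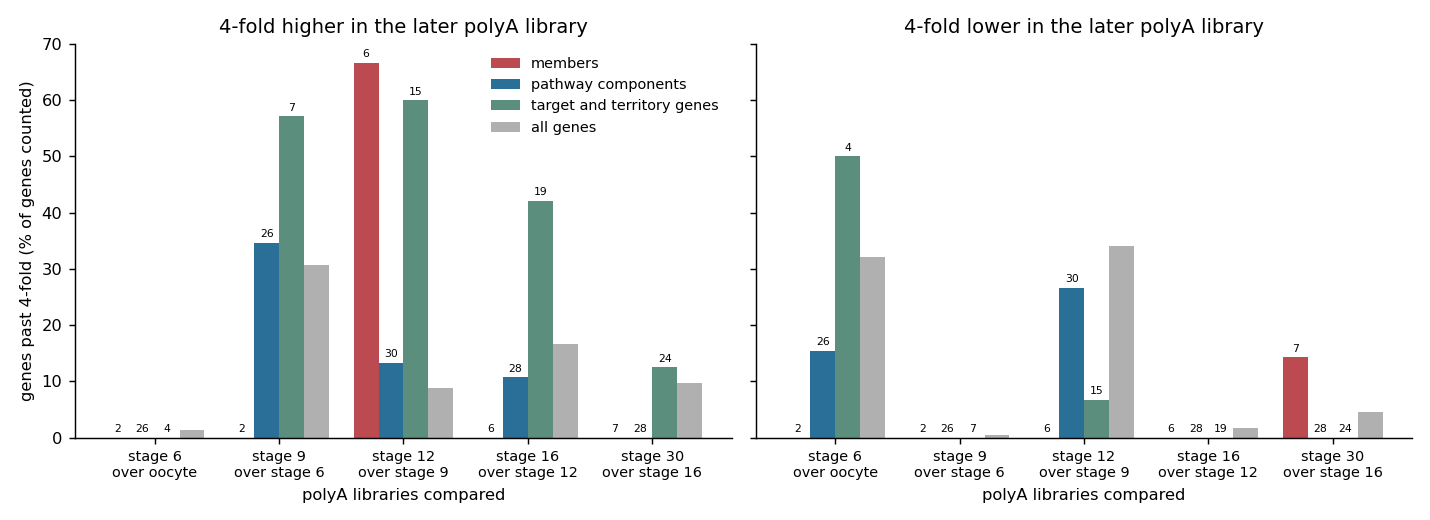
Share of genes counted (numbers above the bars give how many) that were 4-fold or more higher (left) or lower (right) in the later of successive polyA libraries, for the members (red), the pathway components (blue), the target and territory genes (green) and all genes (grey). At stage 12 over stage 9 the members stand at 4 of 6 higher and none lower, while 8.84% of all genes were higher and 34% lower.

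The likeness of patterns was described with Pearson's r of log2(RPKM + 0.1) over the 6 polyA libraries, without a test, since the points share libraries and their scale. Among the 21 pairs of the 7 members that reached 1 RPKM in a polyA library, r was 0.97 for gli2 with gli3, 0.97 for shh with gli3, 0.95 for dhh with gli3, 0.93 for shh with gli2, 0.89 for dhh with gli2 and 0.87 for shh with dhh. The pair ptch1 and smo had 0.78. Between smo and the ligands, the Gli factors and hhip, r ranged from -0.19 to -0.05, while between ptch1 and the same genes it ranged from 0.25 to 0.44, not far from the 0.51 of dhh with hhip and the 0.55 of gli2 with hhip. The gene hhip was nearest to shh, at 0.78. Such values are common: among the 12237 genes compared, gli3 was in place 84 for gli2, and dhh in place 1384 for shh.

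The genes with the pattern most like shh were cyp26c1, an enzyme of retinoic acid breakdown (r = 0.999), lrat and isl1. For dhh they were tfcp2l1 (0.994), loc100130701 and a gene model without a name. For ptch1 they were yif1b (0.991), depdc5 and znf513, and for smo papola, a polyA polymerase (0.993), fam13a and rap1gap2. For gli2 they were lin28a, an RNA-binding protein (0.997), c22orf36 and dhrs3, for gli3 slc16a12 (0.999), pcdh7 and the homeobox gene irx3, and for hhip ank1 (0.998), mmp2 and col6a2. The gene cyp26c1 was picked for its high r, so its levels are a description. They were 0.190 RPKM in polyA stage 9, 2.91 in the gastrula, 11.7 in the neurula and 14 in the early larva. Those of shh were 0.117, 2.81, 10.1 and 13.7 RPKM. In the polyA oocyte, stage 6 and stage 9 both genes lay under the floor, so closeness of level can be read only from stage 12 on.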

How the data were processed

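The deposited values are RPKM, reads scaled by exon length and library size, which the authors averaged over the non-redundant exons of every isoform of a gene, with Xenbase gene models. Reads had been aligned with BWA 0.6.1 (submitters' processing notes) to the JGI assembly 7.1, without reads mapping to several positions. The protocols name no strand-specific step, so overlapping genes on opposite strands could share reads. The table's header holds the 9 sample names in a single field, and columns were read in that order.

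RPKM were used as deposited. Later-over-earlier differences were log2((RPKM + 0.1)/(RPKM + 0.1)) among genes at 1 RPKM or more in either library and were called at 4-fold. PA/RZ used no pseudocount. With 1 library per condition no test was run. Mapped reads were worked out in each library from genes with 1 exon and 1 read, whose RPKM multiplied by length is the same, and 3 reads per kb were taken as a floor that covers counting error only. An estimate of reads per member was planned but not made, as it needed coding lengths that were not used here. Sequences were not used here.

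The members and the lists (pathway components, target and territory genes, markers of oocytes, follicle cells, notochord and floor plate) were chosen with earlier results of these data known. The result for 1 gene of the pathway list is not reported, and that gene was left out of the list. Named genes were all members found, up to 5 genes per list and direction by the stage 30 over oocyte difference, the 3 genes most like each member, and the leading markers. The genes gli1.1, gli1.2, sufu and foxa2, and others listed by a call, were named after their values were seen.

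Alternatives were pseudocounts of 0.01 and 1 RPKM, a filter of 0.5 RPKM or none, folds of 2 and 10, a PA/RZ limit of -1, centring on maternal genes, scaling each library by its median RPKM, Spearman's rho and 1 read per kb added to shares; the polyA oocyte in place of polyA stage 6 was added after the data were seen. On simulated data for stage 30 over the oocyte, 200 of 200 genes made 8-fold higher among 15288 were called, with 0 others. The raised genes had a mean of 2 RPKM or more, all others kept the same mean in each library, and only counting noise was added. The simulation therefore checks the arithmetic and does not cover false calls from low earlier values or from shifts between libraries. Python 3.11.15, numpy 2.4.6, pandas 2.3.3 and matplotlib 3.10.9 were used.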

Additional observations from a re-analysis of the deposited data

Results flagged for a closer look

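With RPKM as deposited, ptch1 and smo differed in opposite directions in the polyA and the RZ libraries between stage 9 and the oocyte, on a log2 scale without a pseudocount. For ptch1 the stage 9 over oocyte difference was 1.37 in polyA and -0.16 in RZ, and the polyA minus RZ difference was 1.53. For smo it was 0.91 in polyA and -0.31 in RZ, and the polyA minus RZ difference was 1.22. The RZ differences were small, and the RZ libraries were not scaled to each other. The share of all genes with opposite directions was not counted, so nothing particular to these genes is shown. With 1 library per stage and RNA fraction, the difference was not tested. The 6 other members were too low in these libraries for such a comparison, and no condition had enough libraries to look for one that stood far from the others.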

How the results depend on the processing

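Of the values recomputed for the member counts, shares and the median r, 16 moved and 91 did not. Counts within 1.5-fold of the main one, shares within 5 percentage points and r within 0.1 were taken as not moved. Some values could not have moved, such as a count of 0 at 4-fold under a fold of 10. These numbers are therefore no measure of how stable the results are. The shares within the ligands and within gli2 and gli3, and all member counts under scaling to the same median, did not move. Directions of single members were less stable. Scaling to the same median turned the log2 difference of ptch1, smo and gli3 for stage 6 over the oocyte. It also turned gli2 and gli3 for stage 9 over stage 6, ptch1 and smo for stage 12 over stage 9, and smo for stage 30 over the oocyte. With a fold of 2, 2 members were higher at stage 9 over stage 6, 2 lower at stage 12 over stage 9, 3 higher at stage 16 over stage 12, and 1 higher and 2 lower at stage 30 over stage 16. Of all genes, 68.1% were then higher at stage 9 over stage 6 and 58.5% lower at stage 12 over stage 9. At stage 16 over stage 12, 33.7% were higher, and at stage 30 over stage 16, 25.2% were higher and 15.3% lower. With a fold of 10, 2 members were higher at stage 12 over stage 9 and 0 lower at stage 30 over stage 16, beside 5.18% and 1.01% of all genes. With a pseudocount of 1 RPKM, 1 member was higher at stage 12 over stage 9 and 1 at stage 30 over the oocyte, beside 5.54% and 13% of all genes. A larger pseudocount shrinks the folds of low genes. With a filter of 0.5 RPKM or none, 1 member (hhip) was higher at stage 16 over stage 12, as hhip then counts. Of all genes, 17.8% were higher with that filter and 15.5% with none. RZ-enriched members numbered 1 in the oocyte at a limit of -1, 4 in the oocyte and 2 at stage 9 with no filter, and 1 at stage 6 with ratios centred on maternal genes. Shares over all genes are not given at these limits, so these counts are no result about the members. The median r over member pairs was 0.51, and 0.39 with a pseudocount of 1 RPKM. Among the other counts, those of the lists, 44 moved and 124 did not. No paired analysis was possible because each condition has 1 pooled library. Depth limits hhip before stage 16, shh before stage 12 and dhh in polyA stages 6 and 9 and the RZ libraries, all under 3 reads per kb. It also limits ihh, which was under that floor in 3 of the 9 libraries. The level of gli2 was under it in the polyA oocyte, the RZ oocyte and RZ stage 6, and that of gli3 in RZ stage 6.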
